A study of Homo sapiens with 30 samples.

Results

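HCT116, a colon carcinoma line, was compared with FaDu, which comes from a squamous tumour of the hypopharynx, where both had been kept at pH 6.5. The comparison took 7 of the 30 libraries of the series, 2 of HCT116 (replicates 1 and 3) and 5 of FaDu (replicates 1 to 5), and covered every gene measured. The series sequenced RNA from HCT116, FaDu and a cervix carcinoma line, SiHa, each held at pH 7.4 or pH 6.5, and the acid cultures had spent at least 1 month at pH 6.5. All groups shared 1 medium with serum, 10 mM glucose and 2 mM glutamine, buffered with HEPES and PIPES, so the 2 groups compared here differed by line and shared the acid condition. Each line is an established culture from a single tumour, and the labels leave unsaid how many cultures, or how many adapted populations, stand behind the libraries of each group. P-values therefore measure the spread between these libraries, which may be technical. The libraries labelled HCT116 pH 6.5 replicates 5 to 7 were left out because genes restricted to SiHa stood there at 37.3% to 101% of their SiHa level.

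The tissues of origin build different epithelia. Squamous epithelium is stratified: TP63 maintains its basal cells, which assemble keratins 5 and 14, desmosomes and hemidesmosomes. Colon epithelium is a single layer whose identity depends on CDX2 and whose renewal depends on Wnt signalling through beta-catenin. As background, HCT116 is known for a mutant beta-catenin, and FaDu for loss of SMAD4 and gain of the CCND1 region. The fluid around tumours is often acid, and cells cope with it through carbonic anhydrases, sodium-proton exchangers, bicarbonate transporters and lactate transporters. A shift of fuel use towards fatty acids is a known feature of acid-adapted tumour cells.

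Values are normalised counts, and a log2 difference is HCT116 minus FaDu on the scale log2(normalised count + 1). The 7 libraries held 30.5 to 50.8 M reads and 27270 to 30391 detected genes, and a count of 0 allows up to 3 reads in a library, which is 2.08 to 3.43 normalised counts. Genes restricted to HCT116 stood at 98.5% to 98.7% of their HCT116 level in the 2 HCT116 libraries and at 0.0742% to 0.104% in the FaDu libraries, and genes restricted to SiHa reached at most 0.0505% in any of the 7. Genes restricted to FaDu stood at 72.3% to 86.0% of their FaDu level in the FaDu libraries and at 0% in the 2 HCT116 libraries. Their FaDu level came from 1 library, FaDu pH 7.4 replicate 1. Marker lists of fibroblasts, endothelium, immune cells and adipocytes had 3 of 11, 4 of 7, 3 of 10 and 3 of 5 members above the test's minimum. Their summed levels in HCT116 and in FaDu were 1409 to 1796 and 488 to 676 for fibroblasts, 72.1 to 84.4 and 440.4 to 2417 for endothelium, 57.0 to 64.1 and 124 to 186 for immune cells, and 1781 to 1824 and 719.6 to 962 for adipocytes. These sums came from a few genes (COL1A1, COL3A1 and ACTA2, CDH5 and CLDN5, CD14 and LYZ, PPARG and LIPE), while DCN, PDGFRA, CD3E and LEP were at 0 in HCT116 and at a mean below 1 in FaDu. Within a line the libraries correlated at r = 0.9715 to 0.9941 across 18894 genes, and between lines at 0.7558 to 0.7892. Genes are not independent replicates.

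FaDu replicate 1 stood apart from FaDu replicates 2 to 5. Across the 20171 genes tested, a larger set than the 18894 used above, its correlation with them was 0.9733 to 0.9826. Among the other 4 it was 0.9891 to 0.9932. Of 16348 genes with a FaDu mean of at least 20, it was the outlying FaDu library (Dixon's test, 95% level) in 1958, or 12%, while each of the other 4 was so in 0.19% to 0.599%. It was closer than the others to the FaDu library at pH 7.4, with r = 0.9796 against 0.9614 to 0.9655. Log2 differences at pH 6.5 that moved by more than 1.5-fold without it are given with and without it. With 2 HCT116 libraries, leaving out either one moved the log2 difference of 31 of the 162 genes named by rule and reported here by more than 1.5-fold, so each library's value is printed for the genes that carry a result.

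The lines differed in most of the transcriptome. Of 20171 genes tested, 12886 (63.9%) passed limma's test at an adjusted p under 0.05, 6227 (30.9%) higher and 6659 (33.0%) lower in HCT116. At least 4-fold differences were called for 2029 genes higher (10.1%) and 2320 lower (11.5%), together 4349 (21.6%). The 2 groups did not overlap at 13692 genes (67.9%), so an absence of overlap is the common case here and marks no gene out. Without FaDu replicate 1 the count was 14134, without HCT116 replicate 1 it was 11050, and the median log2 difference over all genes tested was -0.02. Genes present in only 1 line were more often FaDu genes: 153 genes had 0 reads in both HCT116 libraries and a FaDu mean of at least 100, and 18 had 0 reads in all 5 FaDu libraries and an HCT116 mean of at least 100. The FaDu group has more libraries, so a gene has more chances there of a stray read. With up to 3 reads allowed in each library the counts were 310 and 93.

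Cancer-testis genes on the X chromosome were among the leading genes in both directions. These genes are normally read in germ cells, and their promoters are known to be held silent elsewhere by methylation of CG dinucleotides, which was not measured here. MAGEB2 stood at 7059 and 6446 in the HCT116 libraries and at 0, 0, 0, 1.04 and 0 in FaDu (log2 difference 12.51 ± 0.37 (SE), adjusted p = 2.07e-08). MAGEA3 stood at 5312 and 4054 against 0, 0, 0.875, 3.13 and 0 (log2 difference 11.59 ± 0.58 (SE), adjusted p = 4.17e-07). MAGEA2B, a close copy of other MAGEA genes whose reads can be split among them, stood at 4187 and 2901 against 0 to 3.47. MAGEA4 ran the other way, at 1.14 and 0 in HCT116 and 11823, 9457, 9908, 9289 and 9847 in FaDu (log2 difference -12.74 ± 0.25 (SE), adjusted p = 2.6e-09). Of 29 cancer-testis genes matched to an identifier, 7 reached a mean of 10 in the higher line and were tested. Others, such as MAGEA1 and MAGEC1, were not matched. A gene silent in 1 line enters the test only through the other, so the counts follow in part from this filter. Of the 7, 5 were higher in HCT116 (71.4%, background 30.9%), MAGEA4 was lower, and PRAME did not pass at a log2 difference of -0.03. MAGEA3, MAGEA2B and MAGEA6, close together on the chromosome, were among the higher ones. The groups did not overlap for MAGEB2, MAGEA3, MAGEA2B or MAGEA4, which was a condition for naming them.

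The 250 bases before the start of these 4 genes are shown because members of a single family on the same chromosome ran in opposite directions. They are RefSeq sequences of GRCh38.p14, 5′ to 3′ on the gene's strand, with every CG dinucleotide in capitals.
MAGEB2: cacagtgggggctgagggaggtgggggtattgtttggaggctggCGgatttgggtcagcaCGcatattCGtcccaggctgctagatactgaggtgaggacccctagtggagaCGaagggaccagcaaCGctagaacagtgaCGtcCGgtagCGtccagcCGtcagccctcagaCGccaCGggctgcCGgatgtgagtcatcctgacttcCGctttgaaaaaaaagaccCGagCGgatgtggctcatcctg
MAGEA3: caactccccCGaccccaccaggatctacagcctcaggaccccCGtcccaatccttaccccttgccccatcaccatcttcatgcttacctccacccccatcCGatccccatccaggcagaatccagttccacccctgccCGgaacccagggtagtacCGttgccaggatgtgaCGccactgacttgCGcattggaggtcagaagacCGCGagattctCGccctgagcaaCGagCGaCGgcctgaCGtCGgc
MAGEA2B: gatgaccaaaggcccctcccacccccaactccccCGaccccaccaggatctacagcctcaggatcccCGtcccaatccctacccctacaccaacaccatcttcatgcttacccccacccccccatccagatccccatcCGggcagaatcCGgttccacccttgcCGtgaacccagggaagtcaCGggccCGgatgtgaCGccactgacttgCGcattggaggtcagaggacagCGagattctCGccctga
MAGEA4: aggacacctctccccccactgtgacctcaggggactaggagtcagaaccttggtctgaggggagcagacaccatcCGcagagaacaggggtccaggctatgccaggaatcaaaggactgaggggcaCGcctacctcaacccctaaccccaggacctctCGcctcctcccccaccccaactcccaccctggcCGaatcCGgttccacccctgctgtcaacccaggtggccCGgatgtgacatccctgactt
MAGEB2 lies at chrX:30215313-30215562 (plus strand), MAGEA3 at chrX:152698544-152698793 (plus strand), MAGEA2B at chrX:152714378-152714627 (plus strand) and MAGEA4 at chrX:151912224-151912473 (plus strand). They held 15, 15, 11 and 6 CG dinucleotides in that order, and MAGEA4, the gene read in FaDu, held the fewest. Over the whole 300-base promoter, 88.9% of the 9 leading genes higher in HCT116 that the table holds had 10 or more CG, 77.8% of the 9 lower ones, and 84.3% of the 12708 tested genes with a promoter in the table. The letters CAAAGTCCA, searched on both strands, were in none of the 18 (0.275% of those tested), and TTTATNG was in the promoter of VAV3 alone (6.31%).

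The other leading genes higher in HCT116 covered germ cell, developmental and metabolic roles. GTSF1, a partner of the piRNA pathway, stood at 4633 and 3882 against 0 to 1.75 in FaDu, and NLRP2, an inflammasome-family gene of oocytes, at 2929 and 2548 against 0 to 1.39. BMP4, a secreted ligand of the TGF-beta superfamily, stood at 15085 and 26021 in HCT116 and at 35.4, 5.55, 4.37, 6.27 and 4.42 in FaDu (log2 difference 11.15 ± 0.70 (SE), adjusted p = 1.65e-06), where FaDu replicate 1 was the highest FaDu library. ONECUT3, a homeodomain transcription factor, stood at 3187 and 2150.1 against 0 to 2.78, and SLC38A5, a glutamine transporter, at 2742 and 1971 against 0 to 2.21. HBE1, the embryonic beta-like globin, reached 3646 and 3399 in HCT116 against 0 to 3.13, and TNFRSF10D, a decoy receptor for the death ligand TRAIL, 1556 and 2208 against 0 to 1.1. ME2, the mitochondrial malic enzyme, was read at 2354 and 2066 in HCT116 and at 0 in all 5 FaDu libraries, at least 774-fold higher against the floor of 3 reads averaged over the FaDu libraries. MEX3C, an RNA-binding ubiquitin ligase, stood at 1631 and 1872 against 0 to 0.875. For these 9 genes each HCT116 library lay above every FaDu library, as the rule that named them required.

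The leading genes lower in HCT116 included RNAs and junction, signalling and transcription genes of FaDu, 6 of them with no read in either HCT116 library. MIR205HG, the host transcript of the squamous miRNA miR-205, was at 0 in both HCT116 libraries and at 7352, 16668, 15271, 15032 and 19992 in FaDu, at least 4336-fold lower in HCT116. The tight junction gene CLDN1 stood at 3.43 and 4.56 against 9907 to 26498, and HENMT1, which methylates piRNAs, at 1.14 and 0 against 3412 to 5006. VAV3, a guanine nucleotide exchange factor, TMEM30B, a subunit of lipid flippases, IRX2, a homeobox factor, OLR1, a receptor for oxidised LDL, and SLFN13, a tRNA-cutting ribonuclease, were at 0 in both HCT116 libraries and at 2076 to 4851, 3089 to 4081, 2882 to 3709, 1943 to 3823 and 2169.6 to 2854 in FaDu. GTSF1 and HENMT1, both genes of the piRNA pathway, thus stood near the floor in opposite lines. BASP1, a membrane-bound signalling protein, stood at 18.3 and 0 in HCT116, the 2 libraries differing, against 10829 to 17840, and its log2 difference was -13.66 without HCT116 replicate 1 and -9.39 without replicate 3. HDGFL3, a growth factor-like nuclear protein, stood at 2.29 and 0 against 4431 to 4800.4, with -12.17 and -10.45 in the same order.

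**Figure D1:**
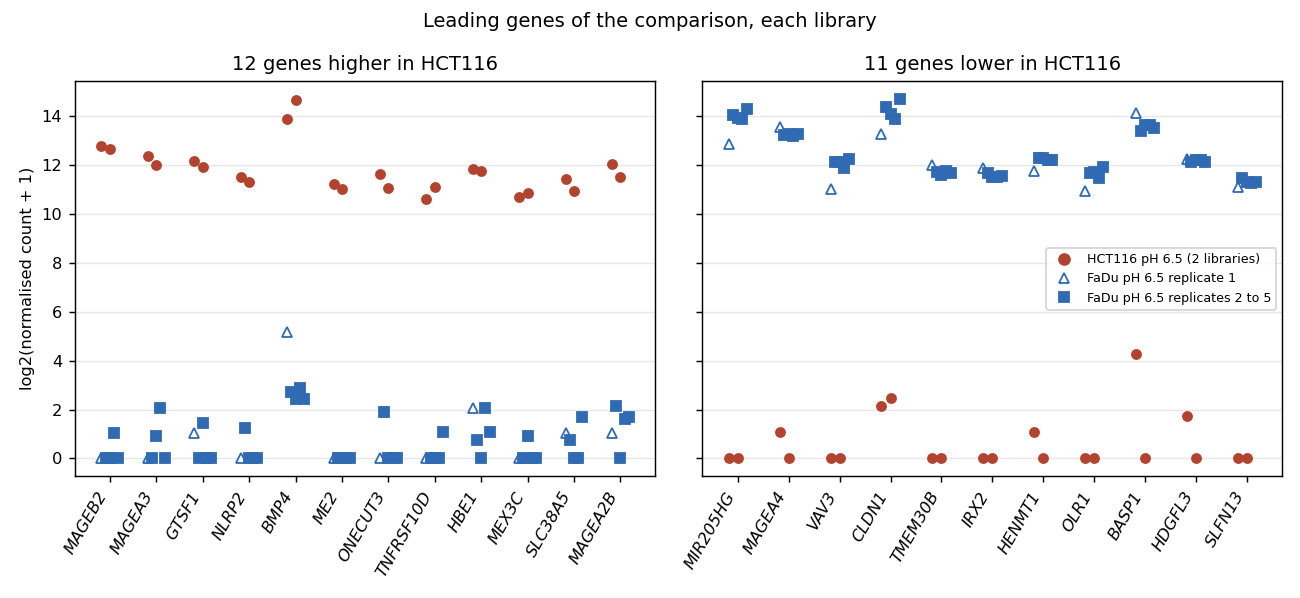
Each point is 1 library of the comparison, with log2(normalised count + 1) on the vertical axis and, on the horizontal axis, the 12 genes higher and 11 genes lower in HCT116 with the largest log2 differences; open triangles are FaDu replicate 1. The genes were chosen for large differences without overlap, so the 2 HCT116 and 5 FaDu libraries sit at opposite ends of the scale by that choice. FaDu replicate 1 lies apart for BMP4, where it stands at 35.4 against 4.37 to 6.27.

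Among the called genes with the largest differences of mean normalised count, which favours abundant transcripts, those higher in HCT116 differed by small folds and some of those lower by far larger ones. Mitochondrial transcripts were higher in HCT116: MT-CYB of the respiratory chain stood at 288150 and 267440 against 98753 to 128950 (log2 difference 1.26 ± 0.16 (SE)), and MT-ND2 at 270840 and 226260 against 127200 to 143530 (0.89 ± 0.15 (SE)). EEF2, the elongation factor that moves the ribosome, was 3.55-fold higher, at 166790 and 129700 against 36778 to 52432. For EEF1A1, MT-CO3, MT-RNR2 and MT-ND4 the calls were higher too, with log2 differences of 0.74, 0.76, 0.55 and 0.48, but without HCT116 replicate 1 none of these 4 passed: adjusted p was 0.0731, 0.0695, 0.184 and 0.255 in that order. Without HCT116 replicate 3 the calls of EEF1A1, MT-RNR2 and MT-ND4 were lost as well, and those of MT-RNR2 and MT-ND4 also without some FaDu libraries, with adjusted p of at most 0.079. Copies of mitochondrial and EEF1A1 sequence in the nuclear genome can share their reads. On the other side, KRT5 stood at 721 and 897 in HCT116 and 356740, 263330, 266710, 225800 and 236520 in FaDu, 331-fold lower, and H19, an imprinted RNA, at 157 and 115 against 16165, 123420, 65865, 67678 and 98085, where FaDu replicate 1 was the lowest FaDu library. CTTN, which binds branched actin, was 17.5-fold lower, GSTP1, a glutathione transferase, 4.93-fold, FLNA, an actin crosslinker, 3.39-fold, and F3, the tissue factor that starts clotting, 11.3-fold. NEAT1, the scaffold RNA of paraspeckles, stood at 10120 and 9068 against 16101, 61620, 54054, 54127 and 75784. Its call was lost without HCT116 replicate 3 (-2.20, adjusted p = 0.0547).

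Squamous genes were lower in HCT116 as a group. Of the 42 tested members of the squamous list 33 were lower (background 33.0%), 5 were higher and 4 did not pass, and their median log2 difference was -2.16, against -0.02 over all genes. TP63, the master regulator of squamous basal cells, stood at 2.29 and 3.42 in HCT116 and 5768, 5950.4, 5517, 5560.4 and 6018 in FaDu (log2 difference -10.56 ± 0.14 (SE), adjusted p = 3.74e-10). The desmosome gene PKP1 stood at 2.29 and 0 against 1356 to 3521, and without HCT116 replicate 1 or 3 its log2 difference was -11.12 or -9.40. KRT17, a keratin of activated keratinocytes, stood at 44.6 and 19.4 against 21943 to 29917, and the protease inhibitor SERPINB13 at 0 in both HCT116 libraries against 304 to 439. KRT5 was not at the floor in HCT116: its 721 and 897 at pH 6.5 compare with 8.6 to 41.0 in 5 HCT116 libraries at pH 7.4. The 5 higher members, picked out after their values were seen, were the protease KLK7 (6.72), the gap junction gene GJB2 (4.58), SERPINB5 (1.25), ITGB4 (1.23) and LY6D (1.00). The summed level of the list was 99627 to 132950 in HCT116 and 466298 to 663214 in FaDu. In bulk RNA, fewer cells of a type and less RNA per cell cannot be told apart.

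The colon list did not separate the lines as a group. Of 26 tested members 10 were higher (background 30.9%) and 10 lower in HCT116, and the median log2 difference was 0.14. CDX2, which sets intestinal identity, stood at 1030.1 and 821 in HCT116 and 1.04, 0, 0, 0 and 0 in FaDu (log2 difference 9.64 ± 0.40 (SE), adjusted p = 1.3e-07). KRT20, a keratin of mature colon cells, stood at 917 and 990.1 against 0 to 4.86, and FOXA3, a forkhead factor of the gut, at 283 and 366 against 0 to 0.694. GATA4, a foregut factor, went the other way, at 0 in both HCT116 libraries and 331, 236, 212, 235 and 288 in FaDu, at least 76.0-fold lower. Other gut genes on the FaDu side, named after their values were seen, were the guanylin receptor GUCY2C (-6.29), AGR2 (-6.11), FOXA1 (-4.80) and VIL1 (-2.71). TFF3, AGR3 and OLFM4 were not matched to an identifier and were not analysed here. The summed level of the list was 20235 to 20323 in HCT116 and 18000.1 to 20631 in FaDu, ranges that overlap.

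A list of keratins was divided. It held keratins of simple epithelium, the kind that gut cells use, and also KRT80 and hair keratins such as KRT86. Its counts are therefore not those of gut keratins alone. Of 8 tested, 1 was higher (12.5%, background 30.9%) and 4 lower (50%, background 33.0%) in HCT116. The main simple pair KRT8 and KRT18 had log2 differences of -0.56 (not called) and -0.90. KRT23 was the higher gene, at 1532 and 1475 against 8.84 to 27.8. KRT80 stood at 599.7 and 352 against 7260.4 to 12720, 21.2-fold lower. KRT7, a keratin of ducts and glands, stood at 209 and 60.5 in HCT116 and 1156 to 1352 in FaDu at pH 6.5, 10.7-fold lower, while 5 HCT116 libraries at pH 7.4 held 2496 to 3479.7. Its log2 difference was -4.31 without HCT116 replicate 1 and -2.53 without replicate 3. KRT86, a hair keratin, was called lower at 124 and 39.9 against 151 to 201, a call lost without HCT116 replicate 3 (-0.45, adjusted p = 0.112).

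HOX genes, which record a cell's position along the body axis, were called about as often as all genes tested: of 35 tested, 12 were higher (34.3%, background 30.9%) and 13 lower (37.1%, background 33.0%) in HCT116. The members named below were on both sides. HOXB8 stood at 1944 and 1408 in HCT116 against 12.5, 8.33, 7.87, 12.5 and 13.3 in FaDu (142-fold higher), and HOXB9 at 1526 and 1264 against 202, 25.0, 42.9, 36.6 and 32.0, with FaDu replicate 1 the highest FaDu library. HOXB4 to HOXB9 were all higher, with log2 differences of 1.33 to 7.15. In the D cluster HOXD3 was higher (2.75), and HOXD9, HOXD10, HOXD11 and HOXD13 were lower, at -5.22, -4.47, -4.03 and -6.30, and HOXD10 stood at 3.43 and 3.42 against 226, 73.6, 66.5, 90.9 and 87.3. HOXA2, a head and neck patterning gene, stood at 5.72 and 9.12 against 119 to 170.0, 17.6-fold lower, while HOXA13 and HOXA9 were higher, at 2.62 and 2.75.

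Wnt genes differed in both directions. Of 32 tested members 17 were higher (53.1%, background 30.9%) and 11 lower (34.4%, background 33.0%) in HCT116, with a median of 1.28. AXIN2, NKD1, NOTUM, RNF43 and SP5, negative-feedback targets and regulators of beta-catenin signalling named after their values were seen, had log2 differences of 6.55, 4.0, 5.84, 2.85 and 3.52. The ligand WNT16 stood at 1006 and 464 against 0.694 to 2.09 (log2 difference 8.22 ± 0.42 (SE), adjusted p = 4.83e-07). Lower members included APCDD1, a membrane inhibitor of Wnt signalling, at 2.29 and 0 against 346, 1265, 714, 605 and 1102, and DKK3, a secreted relative of Wnt antagonists, at 3.43 and 4.56 against 1355 to 1933. For APCDD1 the log2 difference was -9.52 without HCT116 replicate 1 and -7.80 without replicate 3. LEF1, a partner of beta-catenin, was also lower (-6.00), and CTNNB1 itself did not pass (0.26).

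SMAD4, the shared mediator of TGF-beta and BMP signals, was read at 1734 and 1949 in HCT116 and at 2.08, 0.694, 0.875, 3.13 and 0 in FaDu (log2 difference 9.78 ± 0.52 (SE), adjusted p = 6.29e-07). That is the state known for each line, and FaDu held 0 at pH 7.4. Of 36 tested TGF-beta pathway genes 15 were higher (41.7%, background 30.9%) and 13 lower (36.1%, background 33.0%) in HCT116, with a median of 0.04. Among the higher ones were genes known as BMP targets and named after their values were seen, with ID2 at 6048 and 4749.6 against 7.29, 3.47, 5.25, 7.31 and 7.73 (766-fold), with ID1, ID3, SMAD6, SMAD7 and BAMBI at log2 differences of 2.05, 4.83, 3.73, 2.99 and 6.40. The ligands differed in kind: BMP4 was higher, as above, and BMP2 lower, at 1.14 and 0 against 273 to 316. TGFBI, a secreted matrix protein named for its induction by TGF-beta, stood at 5.72 and 0 against 657 to 816. Its log2 difference was -9.55 without HCT116 replicate 1 and -6.80 without replicate 3. CCN1, CCN2 and FST were lower, at -3.08, -3.74 and -4.86.

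Genes of growth arrest and DNA damage, and output genes of the MAPK pathway, were mostly higher in HCT116. The first of these groups was assembled as known targets of p53, so its members need not all act in growth arrest or DNA damage. Of its 29 tested genes 19 were higher (65.5%, background 30.9%) and 2 lower (6.9%, background 33.0%), with a median of 0.55. Of 20 MAPK output genes 14 were higher (70%) and 1 lower (5%), with a median of 1.33. CDKN1A, the p21 inhibitor of the cell cycle, counted here among cell cycle genes, stood at 15981 and 12192 in HCT116 against 882, 530.2, 570.4, 485 and 558 in FaDu (log2 difference 4.56 ± 0.22 (SE), adjusted p = 3.78e-07). GDF15, a secreted stress hormone that curbs appetite, stood at 20645 and 17867 against 811, 1082, 1221, 1214 and 1644, 16.5-fold higher. BTG2 and BBC3, genes of growth arrest and cell death, were 11.7-fold and 9.69-fold higher. SPATA18 (-4.65) and BAX (-1.01) were the 2 lower members. Among MAPK genes, the feedback inhibitors SPRY4, DUSP4 and DUSP6 stood at 5701 and 9373, 11593 and 6790.2 and 7605 and 7659 in HCT116 against 47.9 to 146, 114 to 278 and 144 to 561 in FaDu. The chemokine CCL20 was the lower member, at 11.4 and 2.28 against 97.8 to 356; its log2 difference was -5.97 without HCT116 replicate 1 and -4.04 without replicate 3.

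The 4 receptors of the EGF family were all lower in HCT116, with log2 differences of -2.03, -0.72, -0.52 and -2.39 for EGFR, ERBB2, ERBB3 and ERBB4. EGFR stood at 6186 and 7748 against 24368 to 34804, 4.09-fold lower, and the ligand NRG1 at 391 and 468 against 1231 to 1780.2. ERRFI1, an inhibitor of EGFR, was 6.29-fold higher. Over the whole list the median log2 difference was 0.26, and 52.9% of members were called against 63.9% over all genes. The shares higher and lower were 17.6% and 35.3% (background 30.9% and 33.0%). Of 17 tested members of the family and its regulators 3 were higher, 6 lower and 8 did not pass, and without 1 library the count of higher genes was 1 to 4. The ligand TGFA was called higher at 2782 and 1867 against 1594, 499, 690.2, 864 and 615, with FaDu replicate 1 within reach of HCT116, and the call was lost without HCT116 replicate 1 (1.25, adjusted p = 0.116).

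The region around CCND1 on the long arm of chromosome 11, which head and neck tumours often gain, was lower in HCT116. Of 10 tested genes 7 were lower (70%, background 33.0%) and 1 higher (10%, background 30.9%), with a median of -2.11. LTO1 stood at 601 and 505 in HCT116 against 9127, 9074, 8610, 8846 and 8854 in FaDu, 16.1-fold lower, and PPFIA1 at 2226 and 2330.3 against 36259, 37218, 32472, 35535 and 34997, 15.5-fold lower, and within each line the libraries lay close together. CTTN was 17.5-fold lower and FADD differed by -2.92. The growth factor FGF3 stood at 2.29 and 2.28 against 180.1, 455, 457, 439 and 464. CCND1 itself differed less, at -0.65 on the log2 scale (means 17175 ± 6859 (SD, n = 2) in HCT116 and 26084 ± 3359 (SD, n = 5) in FaDu). ANO1 and MYEOV did not pass (0.50 and 0.02).

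Among cell cycle genes 4 of 19 were higher (21.1%, background 30.9%) and 10 lower (52.6%, background 33.0%) in HCT116. Besides CDKN1A, the cyclin CCNE1 was 3.15-fold higher and the inhibitor CDKN2C 5.88-fold lower. CCND2 was called lower at 18.3 and 5.7 against 2512, 106, 248, 208 and 118, where FaDu replicate 1 exceeded the other FaDu libraries. Its log2 difference was -4.61 with all 7 libraries and -3.82 (adjusted p = 0.000146) without FaDu replicate 1. Without HCT116 replicate 3 it was -3.85 and the call was lost. Mismatch repair genes gave 2 higher (25%) and 5 lower (62.5%) of 8, against the same backgrounds. MSH3 was 6.4-fold lower, at 91.6 and 123 against 643 to 775. MLH3 stood at 326 and 788 against 1342 to 1754, and PMS1 was 2.08-fold higher. Without HCT116 replicate 1 the log2 difference of MLH3 was -0.93, and without replicate 3 it was -2.20.

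Notch genes were lower in HCT116 at 11 of 23 tested members (47.8%, background 33.0%) and higher at 6 (26.1%, background 30.9%). The ligand DLL1 stood at 205 and 347 against 2254 to 3633, 10.3-fold lower, MFNG, which adds sugars to Notch receptors, was 15.2-fold lower, and the feedback target NRARP 6.1-fold. HES2 was 14.7-fold higher, at 845 and 709 against 35.4, 129.8, 37.6, 40.7 and 53.

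Adhesion and matrix genes were lower in HCT116 at 13 of 26 members of the epithelial-mesenchymal list (background 33.0%) and 19 of 36 of the matrix and integrin list, and higher at 6 and 9 (background 30.9%). The tight junction list, with 8 of 21 lower (38.1%) and 6 higher (28.6%), was near the shares over all genes. The mesenchymal genes did not move together: CDH2 (N-cadherin) and the transcription factor TWIST2 were at 0 in both HCT116 libraries against 452 to 775 and 198 to 396, while the transcription factor ZEB1 was higher in HCT116 (6.08) and VIM did not pass (1.67). SNAI2 stood at 32.0 and 4.56 against 701 to 1450.2, with -7.43 without HCT116 replicate 1 and -4.86 without replicate 3. ELF5, an epithelial factor, stood at 157 and 263 against 0 to 1.39. Basement membrane collagens COL4A2 and COL4A1 stood at 4.58 and 1.14 and 2.29 and 5.7 in HCT116 against 2172 to 4775 and 596 to 1315 in FaDu. The log2 difference of COL4A2 was -10.61 without HCT116 replicate 1 and -9.23 without replicate 3. The integrin ITGB6 was 109-fold lower (-6.12 and -7.41 in the same order), and the wound matrix gene TNC stood at 8.01 and 0 against 1024, 237, 549, 692 and 334, with -8.96 and -5.79 without HCT116 replicate 1 and 3. CLDN16 was at 0 in both HCT116 libraries against 154 to 637, and CLDN15 was 2.69-fold higher. Without HCT116 replicate 1, 2 tight junction genes were higher in place of 6.

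Of 32 tested genes for acid sensing and pH regulation 14 were higher (background 30.9%) and 8 lower in HCT116, with a median of 0.41. Both lines were in acid medium, so these are differences between lines under the same load. CA12, a carbonic anhydrase on the cell surface, stood at 369 and 278 in HCT116 and 15.6, 3.47, 4.37, 13.6 and 8.84 in FaDu, 35.9-fold higher, and CA9, the hypoxia-linked one, did not pass (-1.43 ± 0.67 (SE)). The sodium-proton exchanger of gut epithelium SLC9A3 was 7.16-fold higher, at 143 and 212 against 12.5 to 37.5. Monocarboxylate transporters went both ways: SLC16A6 stood at 124 and 155 against 6.63 to 25.7, SLC16A4 at 10.3 and 30.8 against 90.6 to 203, and the lactate carriers SLC16A3 and SLC16A1 differed by 1.27 and -1.24. Without HCT116 replicate 1 the lower calls were 3, and without replicate 3 they were 5. Only SLC16A4 of the 4 genes named by rule moved, with -2.36 and -3.85.

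In glycolysis 7 of 28 genes were higher (25%) and 8 lower (28.6%), under the shares over all genes (30.9% and 33.0%). The glucose transporter SLC2A1 was 2.67-fold lower, at 4467 and 4188 against 10223 to 15316, PDK3, which brakes pyruvate dehydrogenase, 4.43-fold lower, and MPC1, of the mitochondrial pyruvate carrier, 2.41-fold lower. The neuronal glucose transporter SLC2A3 was called higher at 111 and 226 against 71.8, 7.63, 18.4, 18.8 and 11, where FaDu replicate 1 stood above the others, and the call was lost without HCT116 replicate 3 (2.51, adjusted p = 0.0882). The count of higher genes was 14 without FaDu replicate 1 and 4 without HCT116 replicate 1.

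Genes that take up and activate fatty acids were higher at 11 of 22 (50%, background 30.9%) and lower at 5 (22.7%, background 33.0%). Their median was 0.40. ACSL5, which links fatty acids to coenzyme A, stood at 4702 and 5961 in HCT116 and 113, 29.8, 54.2, 38.6 and 23.2 in FaDu (log2 difference 6.87 ± 0.51 (SE), adjusted p = 4.89e-06). The transporter SLC27A6 was 13.3-fold higher. ACSS1, the mitochondrial acetate-activating enzyme, was at 0 in both HCT116 libraries against 82.2, 373, 249, 149 and 311. The lipoprotein receptor VLDLR stood at 1.14 and 13.7 against 106 to 222, with -3.44 and -6.21 without HCT116 replicate 1 and 3. Lipid droplet genes gave 10 higher (38.5%, background 30.9%) and 6 lower (23.1%, background 33.0%) of 26. GPAT3 and DGAT2, which build triglycerides, were 13-fold and 6.26-fold higher, the droplet coats PLIN3 and PLIN5 4.01-fold and 4.34-fold. LPL and CIDEB were not analysed here.

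In fatty acid oxidation 9 of 33 genes were higher (27.3%) and 11 lower (33.3%), close to the shares over all genes (30.9% and 33.0%), with a median of 0.04. PDK4, which spares glucose when fat is burnt, stood at 167 and 414 against 8.33 to 21.9, and without HCT116 replicate 1 or 3 its log2 difference was 5.12 or 3.81. The nuclear receptor PPARA was 4.38-fold lower, HADH 3.32-fold lower and the coactivator PPARGC1B 2.79-fold higher. CPT1A, the gate of mitochondrial import, differed by -0.40. Fatty acid and cholesterol synthesis leaned to FaDu: 20 of 40 genes were lower (background 33.0%), 8 higher, with a median of -0.34. SQLE, a rate-controlling step of cholesterol synthesis, stood at 7658 and 9754 against 24430, 25023, 24462, 23008 and 24022, 2.8-fold lower, and TM7SF2, a sterol reductase, was 4.4-fold higher. The elongases of very long fatty acids were at opposite ends: ELOVL4 at 0 in both HCT116 libraries against 675 to 764, and ELOVL3 at 274 and 221 against 2.09 to 10.5. FASN did not pass (0.47).

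The secreted factors that have been linked to cachexia or fat breakdown differed between the lines in both directions: 8 of 30 were higher (background 30.9%) and 12 lower (33.0%) in HCT116, and 10 did not pass. At least 4-fold, 5 of 30 were higher and 11 lower, where over all genes tested these shares were 10.1% and 11.5%. IL1B, IL1A and IL6, inflammatory cytokines, were lower in HCT116. IL1B was read at 0 and 1.14 in HCT116 and 8349, 1105, 3164, 3971 and 1292 in FaDu (log2 difference -10.86 ± 0.72 (SE), adjusted p = 2.37e-06), IL1A at 2.29 and 3.42 against 3300.2, 947, 2076, 2218 and 978, and IL6 at 0 in both HCT116 libraries against 73.9, 8.33, 38.5, 40.7 and 24.3. CXCL8, which recruits neutrophils, stood at 549 and 155 against 6969, 1413, 4064, 4536 and 2977, LCN2, an iron-trapping protein, at 112 and 26.2 against 997, 499.6, 551, 507 and 447, and EDN1, the vasoconstrictor endothelin, at 19.5 and 3.42 against 53.1, 36.8, 94.5, 72.1 and 56.3. For these 3 genes the HCT116 libraries differed by more than 3-fold, and without replicate 3 the log2 differences were -2.68, -2.35 and -1.57. VEGFC, a lymphatic growth factor, was at 0 in both HCT116 libraries and at 1351, 81.2, 183, 211 and 118 in FaDu, at least 113-fold lower. Without FaDu replicate 1, the highest FaDu library, that bound was 43.3-fold and the log2 difference -7.13 in place of -7.78. VEGFA was 2.2-fold lower and PDGFB 5.43-fold lower. The acute phase genes SAA1 and SAA2 stood at 8.01 and 1.14 and at 1.14 and 1.14 in HCT116 against 395, 27.1, 79.6, 71.0 and 35.3 and 93.7, 6.25, 14.9, 16.7 and 6.63 in FaDu. SAA1 lost its call without HCT116 replicate 3 (-3.05, adjusted p = 0.097), and SAA2 without either HCT116 library (adjusted p = 0.111 and 0.104). FaDu replicate 1 was the highest FaDu library for both, and without it the log2 differences were -3.49 and -2.38 in place of -4.09 and -3.0. CCL2 was close to the floor in HCT116 and low in FaDu, 2.29 and 0 against 15.6, 3.47, 8.75, 12.5 and 9.94, and lost its call without HCT116 replicate 3 (-1.62, adjusted p = 0.0858).

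On the HCT116 side, AZGP1, a lipid-mobilising factor, was read at 54.9 and 74.1 and at 0 in all 5 FaDu libraries, at least 22.6-fold higher, and CHI3L1, a chitinase-like glycoprotein, at 28.6 and 26.2 against 0. MSTN, or myostatin, the brake on muscle growth, stood at 21.7 and 39.9 against 0 to 3.31, and PLA2G7, a lipoprotein phospholipase, at 65.2 and 19.4 against 0 to 4.42. The log2 difference of PLA2G7 was 2.86 without HCT116 replicate 1. AZGP1, CHI3L1, MSTN and PLA2G7 stayed below 100 in every library of both lines. METRN and METRNL, meteorin hormones, were 2.48-fold and 3.53-fold higher, at 2905 and 2064 and 2017 and 1541 in HCT116, and ADM2, a vasodilator peptide, 8.26-fold. ANGPTL4, an inhibitor of lipoprotein lipase, was called higher at 339 and 159.7 against 117, 34.7, 70, 127 and 37.6, and lost its call without HCT116 replicate 1 (1.24, adjusted p = 0.236). GDF15, described above, was held in the list of growth arrest and DNA damage genes.

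Interferon genes depended on which library was used. Of 50 tested, 12 were higher and 9 lower in HCT116, 42.0% in all against 63.9% over all genes, and the higher count was 26 without FaDu replicate 1 and 2 without HCT116 replicate 1. BST2, or tetherin, which holds budding viruses at the membrane, stood at 10629 and 10312 in HCT116 and 2045, 311, 644, 675 and 243 in FaDu, 17.9-fold higher. RSAD2, or viperin, stood at 781 and 352 against 1275, 59.0, 122, 111 and 67.4: it did not pass (log2 difference 1.82 ± 1.04 (SE), adjusted p = 0.153), and passed without FaDu replicate 1 (2.6, adjusted p = 0.000382). The guanylate-binding proteins GBP1 and GBP2 and the immunoproteasome gene PSMB8 were lower, at 96.1 and 22.8, 81.3 and 84.4 and 36.6 and 17.1 in HCT116 against 2916 to 4354, 1096 to 1927 and 1411 to 2981 in FaDu. The log2 difference of GBP1 was -7.23 without HCT116 replicate 1 and -5.20 without replicate 3. For most genes of this list the line difference itself also differed between pH 6.5 and pH 7.4. The change was 10.74 for BST2, 8.42 for RSAD2, 3.52 for GBP1 and -2.67 for GBP2 in log2 units. That contrast, described below, rests on 1 FaDu library at pH 7.4.

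NRF2 targets, the genes of the antioxidant response, were lower at 14 of 34 (41.2%, background 33.0%) and higher at 9 (26.5%, background 30.9%) in HCT116. CBR1, a carbonyl reductase, stood at 2.29 and 0 against 526 to 909, ALDH3A1 at 52.6 and 17.1 against 3334 to 7559.5, and the glutathione peroxidases GPX2 and GPX3 at 19.5 and 33.1 and 9.16 and 20.5 against 1164 to 1928 and 902 to 1528. Leaving out HCT116 replicate 1 or 3 gave -9.23 or -7.51 for CBR1 and -7.96 or -6.39 for ALDH3A1. The higher count was 5 without HCT116 replicate 1. Imprinted genes gave 6 higher (35.3%, background 30.9%) and 9 lower (52.9%, background 33.0%) of 17. IGF2 and H19, neighbours that share an imprinting control, ran in opposite directions: IGF2 stood at 1578 and 1510.2 in HCT116 against 22.9, 107, 54.2, 48.0 and 79.5 in FaDu, 27.5-fold higher. PEG10 was 12.9-fold lower and DIRAS3 7.91-fold higher. Ribosomal protein genes were higher at 54 of 76 (71.1%, background 30.9%) and lower at 3 (3.95%, background 33.0%). Their median was 0.70 (0.66 under total count scaling). RPL13, RPL36 and RPL29 were 3.37-fold, 2.92-fold and 2.82-fold higher. Many near-identical copies share reads with these genes.

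**Figure D2:**
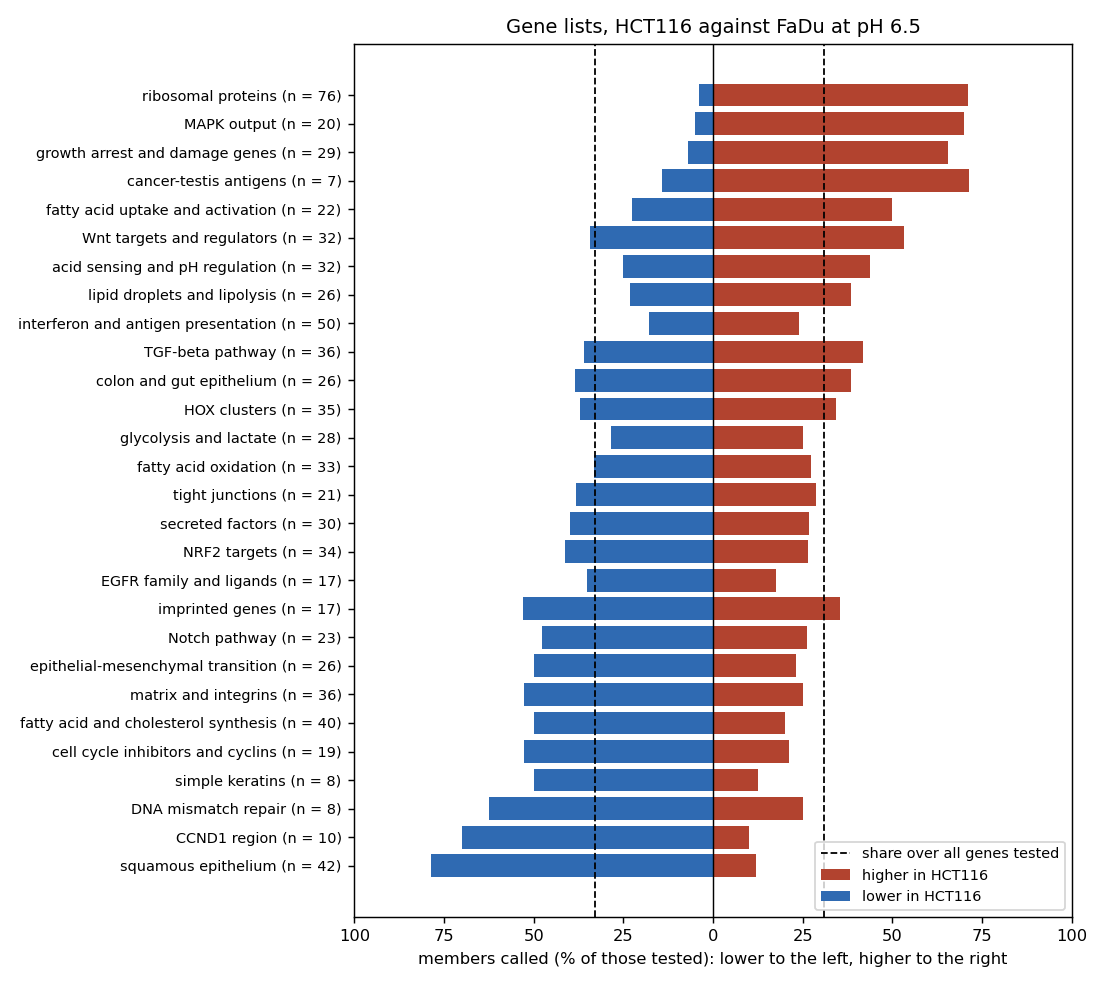
Bars give the share of each list's tested members called higher (right) or lower (left) in HCT116 at pH 6.5, in percent, with the number tested in brackets; dashed lines are the shares over all genes tested, 30.9% and 33.0%. Squamous genes reach furthest to the left, with 33 of 42 lower, and cancer-testis antigens (5 of 7), ribosomal proteins (54 of 76), MAPK output (14 of 20) and growth arrest and damage genes (19 of 29) reach furthest past the right-hand line.

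Some of the largest differences sat next to each other in the order of the tested genes. With 17429 of the tested genes placed in their RefSeq order, 110 runs of 3 or more neighbours were called in the same direction with an absolute log2 difference of at least 3, 45 higher and 65 lower in HCT116. Neighbours are adjacent among tested genes only, so genes silent in both lines can lie between them. A gene silent in 1 line is placed only through the other. Differences of at least 4-fold, a looser limit, were called for 21.6% of all genes tested, and the number of runs that this alone would give was not worked out. SMAD4 lay in a run of 5, MAPK4, ME2, ELAC1, SMAD4 and MEX3C. Their HCT116 means were 66.8, 2210, 225, 1842 and 1751, and their FaDu means 0, 0, 0, 1.36 and 0.175. The flanking genes were read in FaDu: SKA1 before the run at 414 and MBD2 after it at 1789.7. All 5 genes of the run were at 0 in the FaDu library at pH 7.4. On the X chromosome, UBQLN2 and NBDY and then SPIN3, SPIN2B, FAAH2, SPIN2A, ZXDB and ZXDA had FaDu means of 0 to 0.639 and HCT116 means of 148 to 1281, with SPIN4 at 836 in FaDu next to them and a pseudogene between NBDY and SPIN3, UQCRBP1, at 33.7. SPIN2A and SPIN2B are near-identical copies, so their reads can be split. The number of DNA copies was not measured here.

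The longest run had 15 genes, from the fetal and embryonic globins HBG1, HBG2 and HBE1 through 12 olfactory receptor genes and pseudogenes to OR52D1, and all were higher in HCT116. Besides HBE1, OR51B4 and OR51B5 reached means of 1041 and 611 in HCT116 against 0 and 2.33 in FaDu, while the remaining receptor genes stayed at 12 to 54.9. The strand setting of the counts is not known, so reads of a transcript that overlaps neighbours cannot be told apart from reads of each gene. TP63 and CLDN1 shared a run of 5 lower genes, with P3H2, CLDN16 and IL1RAP between and beside them: FaDu means were 5762, 1299, 384, 17994 and 1932, and HCT116 means were at most 22.9. The TRAIL receptor genes TNFRSF10C, TNFRSF10D and TNFRSF10A had FaDu means of at most 0.486, whereas their neighbour TNFRSF10B, the signalling receptor DR5, was read in both lines, at 5945 and 2337.

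**Figure D3:**
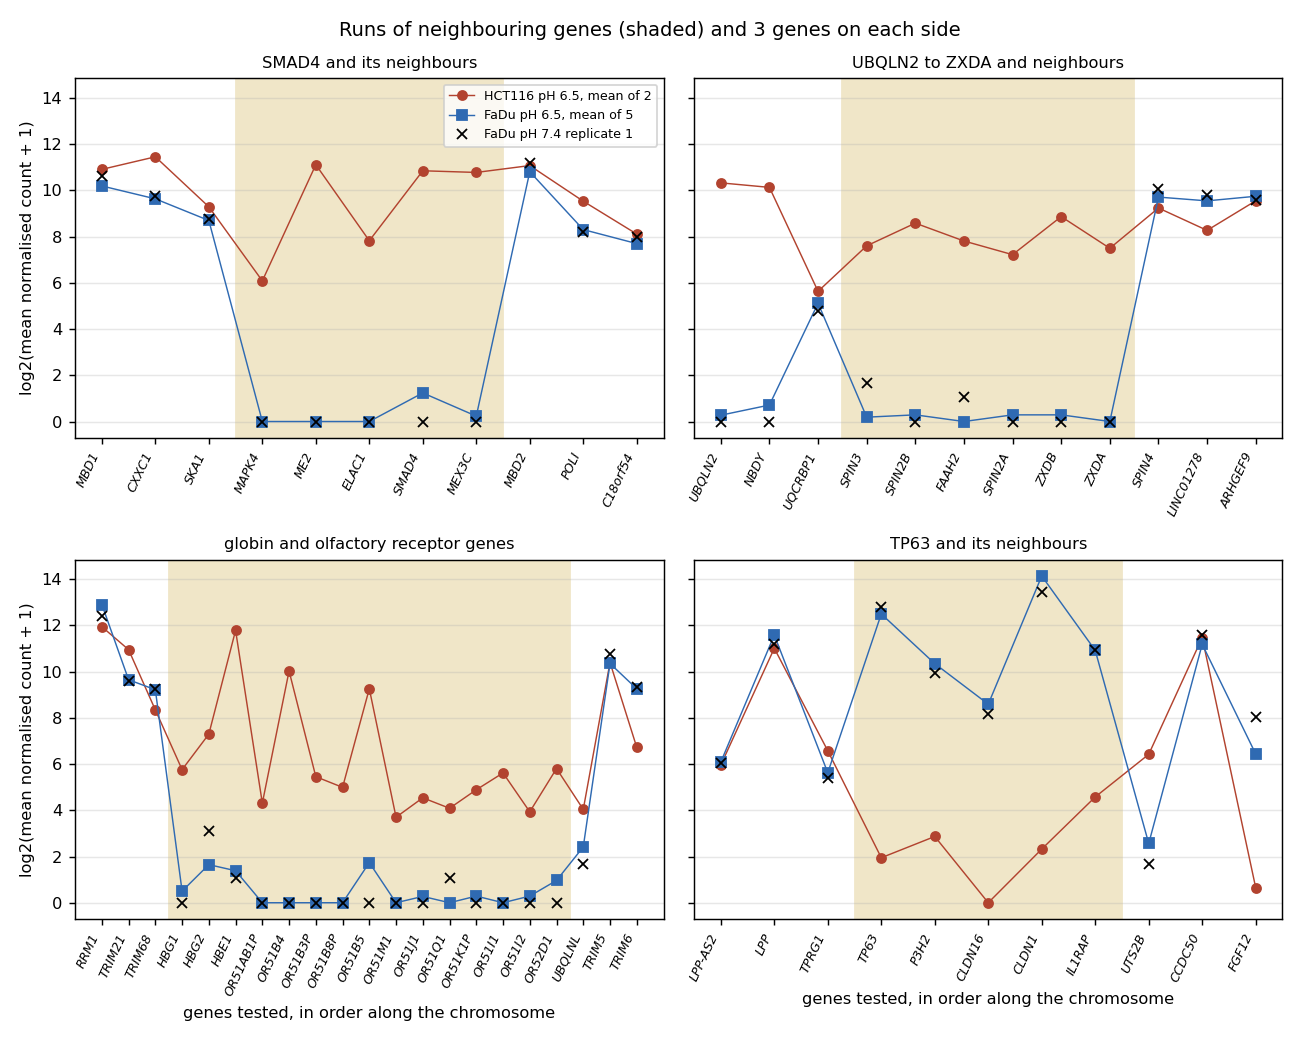
Each panel shows genes in their chromosomal order on the horizontal axis (order only, not distance) and log2(mean normalised count + 1) on the vertical axis for HCT116 pH 6.5 (mean of 2), FaDu pH 6.5 (mean of 5) and FaDu pH 7.4 replicate 1; shading marks a run of called neighbours. In FaDu the curve drops to the floor at MAPK4 and returns at MBD2, and it rises from the floor after ZXDA.

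Most line differences at pH 6.5 were also present at pH 7.4, measured in 5 HCT116 libraries and 1 FaDu library that the comparison above does not use. FaDu pH 7.4 replicates 2 to 5 were left out because HCT116 genes stood there at 33.9% to 81.4% of their HCT116 level. The spread of that single FaDu library was taken to be that of the other groups. At pH 7.4, 11516 of 21090 genes tested (54.6%) were called, 5539 higher (26.3%) and 5977 lower (28.3%) in HCT116. Of the 12886 genes called at pH 6.5, 11552 (89.6%) had the same sign at pH 7.4, against 79.9% of all 20171 genes tested, 8506 were called there in the same direction and 235 in the opposite one. Among the 4349 with at least 4-fold differences the same sign was found for 4150. MAGEB2, GTSF1, NLRP2, CDX2, TP63 and SMAD4, at 12.51, 11.55, 11.16, 9.64, -10.56 and 9.78 at pH 6.5, had log2 differences of 12.60, 12.13, 11.50, 9.62, -10.32 and 11 at pH 7.4.

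**Figure D4:**
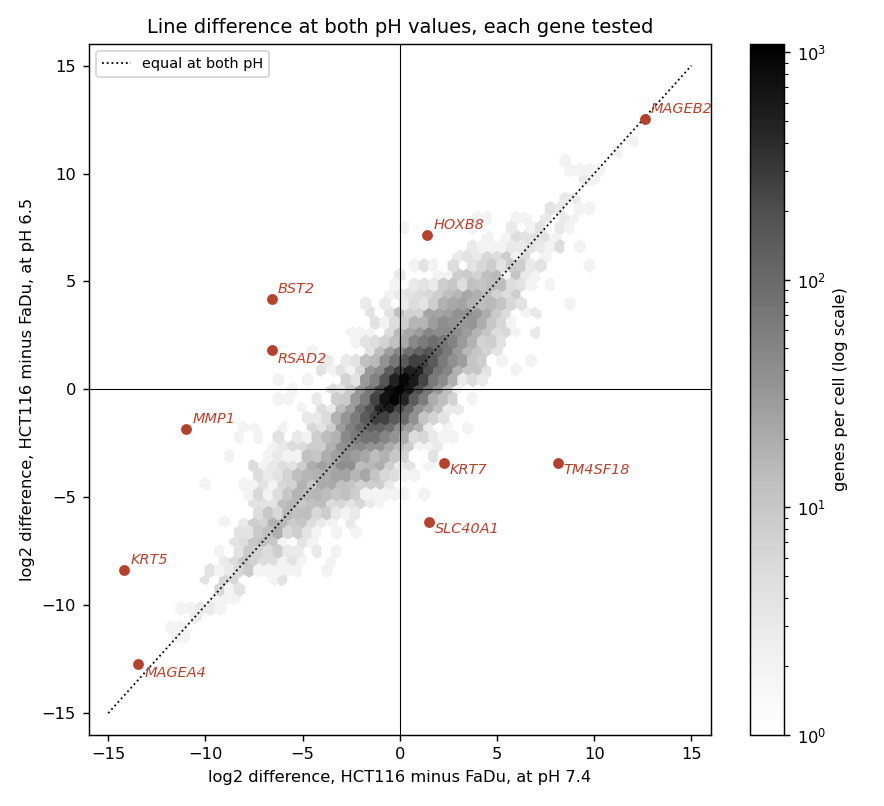
Grey cells count genes by their log2 difference between HCT116 and FaDu at pH 7.4 (horizontal) and pH 6.5 (vertical), with a log grey scale; the dotted line marks equal differences and red points are named genes. MAGEB2 and MAGEA4 lie near the line at its 2 ends, BST2 is higher in HCT116 at pH 6.5 and lower at pH 7.4, and KRT7 and TM4SF18 lie in the opposite quadrant.

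The line difference itself differed between pH 6.5 and pH 7.4 for 3058 of 21090 genes (14.5%), larger towards HCT116 at pH 6.5 for 1363 (6.46%) and towards FaDu for 1695 (8.04%). Without FaDu pH 6.5 replicate 1 the count was 5032, and without HCT116 pH 6.5 replicate 1 the first of these directions held 869. Leaving out HCT116 pH 6.5 replicate 1 or 3 kept the 9 genes below called. With the replicate number as a block RSAD2, RANBP3L, SLC40A1 and PADI2 lost this call (adjusted p = 0.0878, 0.151, 0.0759 and 0.0547), and with all libraries taken as labelled MMP1 and ZNF502 did (0.064 and 0.0641). This test rests on 1 FaDu library at pH 7.4, and the change can lie in either line. With the replicate number as a block far fewer genes were called, as given under the dependence on processing. BST2 had the largest change towards HCT116 (10.74 ± 0.98 (SE), adjusted p = 1.44e-05): HCT116 held 4.91 to 15.7 at pH 7.4 and 10629 and 10312 at pH 6.5, while FaDu held 944 and then 243 to 2045. SiHa at pH 6.5 also read it, at a mean of 12568. MMP1, a collagenase, stood apart between the 2 pH values in both lines: FaDu held 3865 at pH 7.4 and 586, 110.3, 123, 109 and 179 at pH 6.5, against 0 to 6.14 and 77.8 and 28.5 in HCT116 (9.13 ± 1.33 (SE), adjusted p = 0.000632). Its call at pH 6.5 alone (log2 difference -1.85 ± 0.66 (SE), adjusted p = 0.034) was lost without HCT116 replicate 1 or 3, without FaDu replicate 5, in the fit of 4 groups and with no filter on low genes, with adjusted p of 0.06, 0.325, 0.0576, 0.0568 and 0.0602. RSAD2 (8.42, or 9.20 without FaDu replicate 1) and STC1, a calcium-regulating hormone (8.41), stood at 8.6 to 19.1 and 1.74 to 9.83 in HCT116 at pH 7.4 and at 781 and 352 and 474 and 143 at pH 6.5. At pH 6.5 alone STC1 lost its call without HCT116 replicate 1 (2.28, adjusted p = 0.13). RANBP3L, a nuclear export factor, changed by 8.30, with 92.7 and 289.7 in HCT116 at pH 6.5. SiHa at pH 6.5 read it at 23019, and genes restricted to SiHa stood at 0.0505% and 0.00667% of their SiHa level in HCT116 replicates 1 and 3. At pH 6.5 alone its log2 difference was 5.43 without HCT116 replicate 1 and 3.80 without replicate 3.

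Towards FaDu, TM4SF18, a tetraspanin-like membrane protein, was at 0 in both HCT116 libraries at pH 6.5 and at 212 to 352 in 5 at pH 7.4 (-11.53 ± 0.58 (SE), adjusted p = 5.84e-08). In FaDu it stood at 0 at pH 7.4 and 5.55 to 14.9 at pH 6.5. ZNF502, a zinc finger gene, went from 84.6 to 133 in HCT116 at pH 7.4 to 0 in both libraries at pH 6.5, while FaDu held 145 and 147 to 183 (-6.84 ± 0.38 (SE), adjusted p = 9.69e-08). The iron exporter SLC40A1 (-7.68) and PADI2, which converts arginine to citrulline (-7.35), stood apart between the pH values in both lines: HCT116 stood at 55.3 to 118 and 38.1 to 135 at pH 7.4 against 3.43 and 0 and 10.3 and 2.28 at pH 6.5, and FaDu at 26.4 and 20.9 against 43.7 to 267 and 106 to 429.5. Without HCT116 pH 6.5 replicate 1 or 3 the changes were -8.75 or -6.60 for SLC40A1 and -8.25 or -6.46 for PADI2. For TM4SF18, ZNF502, SLC40A1 and PADI2 alike the 2 HCT116 libraries at pH 6.5 were below all 5 at pH 7.4. The genes were chosen for large changes, so this follows in part from the choice.

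**Figure D5:**
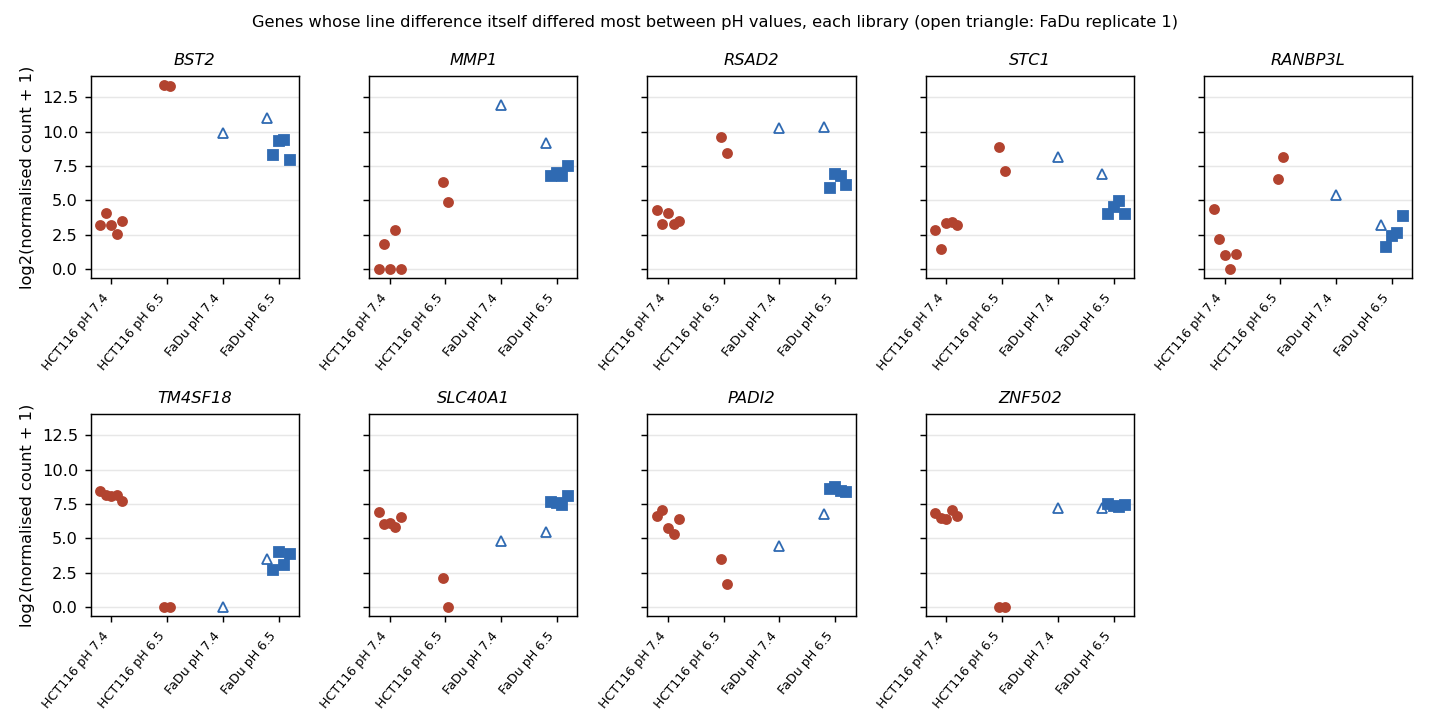
Each point is 1 library, with log2(normalised count + 1) on the vertical axis and the 4 groups of line and pH on the horizontal axis; HCT116 is red, FaDu blue, and open triangles are FaDu replicate 1. In the upper row BST2 stands at 10629 and 10312 in HCT116 at pH 6.5, and in the lower row TM4SF18 and ZNF502 are at 0 there.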

How the data were processed

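RNA was sequenced from HCT116, FaDu and SiHa cells at pH 7.4 and pH 6.5. The deposited table holds a signal per gene and library, read counts that the authors divided by 1 size factor per library. Per the submitters' processing notes the tools were bcl2fastq 2.20, FastQC, Trimmomatic 0.38, STAR 2.6.1d and DESeq2 1.22.2 with GRCh37; how reads were counted, with which strand setting and annotation, is not given in the sources used here. Because reads that fit several copies of a gene may be dropped or split at counting, values of near-identical genes are uncertain. Every value was a whole multiple of 1 read, within 0.01 of a step, in all 30 libraries, so whole reads were recovered (100% of values). Groups were taken from the labels.

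Identifiers of 35466 of 38122 genes matched a symbol, and 35 list members had none. Log2(normalised count + 1) values were tested for genes whose mean reached 10 in the higher of the groups, with limma 3.58.1 (R 4.3.3) with an intensity trend, 2-sided, with Benjamini-Hochberg adjustment and a threshold of 0.05. The pH 7.4 and interaction contrasts came from 1 fit of 4 groups. edgeR 4.0.16 and DESeq2 1.42.0 on the recovered reads, and the other settings described under the dependence on processing, were alternatives. The code was tested on simulated data. Means are given ± SD and model estimates ± SE; floors of 3 reads cover counting error only.

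Named were the 12 genes in each direction with the largest log2 difference (called, mean of at least 100, groups not overlapping), the 8 with the largest difference of means, up to 4 called members per list, every called secreted factor, and the 5 largest interaction changes in each direction, passing over Y-linked genes and genes without a usual symbol; SMAD4 was named as a check. Some genes these rules chose are not reported here. Members and lists were chosen with earlier results of these data known. Genes named only by a log2 difference, and neighbours in runs, were chosen after their values were seen. Lists were described by counts and medians, with no test. Promoter sequences and gene order came from RefSeq tables of GRCh38.p14.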

Additional observations from a re-analysis of the deposited data

Results flagged for a closer look

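Among 134 named genes with enough FaDu signal to be checked, 31 had 1 FaDu library at pH 6.5 that lay outside the other 4 by Dixon's test at the 95% level. In 26 of the 31 it was FaDu replicate 1. That level would give about 1 in 20 groups by chance, but the share over all genes was higher. Of 16348 genes with a FaDu mean of at least 20, replicate 1 stood apart in 12% and each of the other 4 in 0.19% to 0.599%. FaDu replicate 1 was the high library, with its normalised count set against the range of replicates 2 to 5, for BMP4 (35.4 against 4.37 to 6.27), MAGEA4 (11823 against 9289 to 9908), BASP1 (17840 against 10829 to 12780), EEF2 (52432 against 36778 to 41102), HOXB9 (202 against 25.0 to 42.9), HOXD10 (226 against 66.5 to 90.9) and CCND2 (2512 against 106 to 248). It was also high for CDKN1A (882 against 485 to 570.4), TWIST2 (396 against 198 to 235), ADM2 (89.5 against 30.6 to 47.0), LCN2 (997 against 447 to 551), VEGFC (1351 against 81.2 to 211), SAA1 (395 against 27.1 to 79.6) and SAA2 (93.7 against 6.25 to 16.7). Further high values there were those of SLC2A3 (71.8 against 7.63 to 18.8), SLC2A1 (15316 against 10223 to 11073), PSMB8 (2981 against 1411 to 1785), BST2 (2045 against 243 to 675), CBR1 (909 against 526 to 555), RPL36 (8087 against 5857 to 6336) and MMP1 (586 against 109 to 179). The last were those of RSAD2 (1275 against 59.0 to 122) and STC1 (122 against 15.3 to 29.2). It was the low library for HENMT1 (3412 against 4687 to 5006), MT-RNR2 (215120 against 273360 to 288020) and FGF3 (180.1 against 439 to 464). The outlying library was another one for KRT7 (replicate 3, 1352 against 1156 to 1207), HES2 (replicate 2, 129.8 against 35.4 to 53), CLDN15 (replicate 5, 272 against 172 to 199.8), PDK4 (replicate 4, 21.9 against 8.33 to 9.94) and GPX2 (replicate 5, 1928 against 1164 to 1346).

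For 42 named genes the line difference at pH 6.5 differed from that at pH 7.4 by limma's test of the interaction (adjusted p under 0.05), with the change in log2 units in brackets. It moved towards HCT116 at pH 6.5 for BST2 (10.74), MMP1 (9.13), RSAD2 (8.42), STC1 (8.41), RANBP3L (8.30), KRT5 (5.80), HOXB8 (5.73), SLC2A3 (5.57), CCND2 (5.51), NRG1 (5.46), HOXB9 (4.96), BMP4 (4.76) and GBP1 (3.52). Smaller moves in that direction were those of KRT17 (3.41), ADM2 (3.31), SLC38A5 (3.25), GDF15 (3.21), CXCL8 (3.19), DIRAS3 (3.17), CDKN1A (2.86), DUSP6 (2.78), ELF5 (2.63), AZGP1 (2.38) and VEGFA (1.54). It moved towards FaDu for TM4SF18 (-11.53), SLC40A1 (-7.68), PADI2 (-7.35), ZNF502 (-6.84), KRT7 (-5.71), BMP2 (-4.40), H19 (-4.14), PLIN5 (-3.80), IGF2 (-2.87), KRT23 (-2.78), GBP2 (-2.67), KRT80 (-2.62), OLR1 (-2.53), WNT16 (-2.31), GPX3 (-1.76), VAV3 (-1.74), MFNG (-1.41) and HADH (-0.90). Leaving out at least 1 library ended this call for AZGP1, CCND2, CXCL8, DUSP6, ELF5, GBP1, GPX3 and VAV3. On the recovered reads edgeR's quasi-likelihood test did not call AZGP1, CCND2, ELF5, OLR1, VAV3 and WNT16, and DESeq2 did not call AZGP1, CXCL8, ELF5, KRT23, OLR1, VAV3 and WNT16. The call was also lost for 29 of the 42 genes with the replicate number as a block, for 25 with all libraries taken as labelled and for 7 with no filter on low genes. At pH 7.4 FaDu is represented by 1 library, and what lies behind these differences was not tested.

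Libraries outside the comparison carried transcripts of another line. SiHa genes stood at 37.3%, 101% and 101% of their SiHa level in the libraries labelled HCT116 pH 6.5 replicates 5, 6 and 7. HCT116 genes stood at 81.4%, 33.9%, 44.2% and 62.3% of their HCT116 level in the libraries labelled FaDu pH 7.4 replicates 2, 3, 4 and 5.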

How the results depend on the processing

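At pH 6.5 the comparison called 12886 genes, and 11050 to 14134 when 1 library was left out (higher 5127 to 6864, lower 5923 to 7270). With another pseudocount, filter, scaling, count test or the fit of 4 groups the counts stayed within 1.5 times, with 12851 by edgeR and 12821 by DESeq2. No gene called with the main settings was called in the opposite direction under any of these. At pH 7.4 the count without 1 library was 11119 to 12372 (higher 5336 to 5994, lower 5757 to 6378). The interaction was less stable: without 1 library it called 2184 to 5032 genes (higher 869 to 2419, lower 1315 to 2613), the most without FaDu pH 6.5 replicate 1 and the fewest without HCT116 pH 6.5 replicate 1; the cause was not tested.

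With the replicate number as a block the interaction called 220 genes (61 higher, 159 lower) and the pH 6.5 comparison 11092 (5206 higher, 5886 lower). At pH 6.5 the lines share only numbers 1 and 3. Deviations from the group means correlated at 0.253 for number 1 and 0.0659 for number 3 across 18894 genes. With 2 HCT116 libraries, their deviations from the mean mirror each other, so these values cannot decide whether a number marks a pair. The labels do not say that a number marks a shared culture or day. Whether samples with the same number share more than that number is not known.

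With all libraries taken as labelled, the higher genes at pH 6.5 were 4122, and at pH 7.4 the called genes were 4713 (1685 higher, 3028 lower); that setting adds the libraries that carry another line's transcripts. Under it the log2 difference at pH 6.5 changed sign for MT-CO3 (-0.14), MT-RNR2 (-0.13), MT-ND2 (-0.20), MT-ND4 (-0.32), KRT7 (0.89), TGFA (-0.52), IL6 (0.094), VEGFA (0.41) and CCL2 (1.57), and the interaction for VAV3 (1.98), KRT23 (1.25), KRT7 (0.24), WNT16 (2.75) and IGF2 (0.009); the cause was not tested. Depth limits the statements on genes near the floor of 3 reads, and 2 HCT116 libraries limit every standard error.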

Other observations

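Other leading genes lower in HCT116 also lay in runs of neighbours called in the same direction. SLFN13, with SLFN11, SLFN12 and SLFN12L, formed a run of 4 Schlafen genes, which act on tRNA and on stalled replication forks, with HCT116 means of 0 to 0.57 and FaDu means of 18.0 to 2512. OLR1 lay in a run of 6 from CLEC2B to TMEM52B, mostly C-type lectin genes of immune cells, with HCT116 means of 0 to 80.6 against 122 to 3044. HDGFL3 lay between TM6SF1 and BNC1, the latter a zinc finger factor of squamous basal cells; the 3 genes had HCT116 means of 0 to 1.14 and FaDu means of 187 to 4615.

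Of 9 lower runs made up of ZNF genes only, which encode zinc finger proteins, the longest were 1 of 7 genes from ZNF569 to ZNF571 (2 of them antisense genes) with HCT116 means of at most 2.28 and FaDu means of 14.7 to 293, and 1 of 6 from ZNF850 to ZNF420 with at most 14.3 against 64.3 to 249.8. On the HCT116 side, 11 keratin-associated protein genes, from KRTAP1-1 to KRTAP4-6, which belong to hair, stood at 24.6 to 477 against at most 4.09 in FaDu, and 10 of the 11 were at 0 in the FaDu library at pH 7.4. Near-identical members of these families can share reads, and the runs were picked for naming after their values were seen.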
